A study of Mus musculus with 15 samples.

Results

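The Dlk1-Meg3 cluster is an imprinted domain of mouse chromosome 12, and its 6 members described here are Dlk1, Rtl1, Dio3, Meg3, Rian and Mirg. They are the rows of the deposited count table whose gene name is one of these symbols, 6 of 37991 rows. The members were chosen by name with their counts in the 5 groups of these libraries known, so their levels and fold changes are given as a description, with no test. RNA sequencing was done on 15 libraries in 5 groups of 3. The groups were secondary mouse embryonic fibroblasts at passage 3 (MEFs), cultures at day 9 of cardiac reprogramming, induced expandable cardiovascular progenitor cells (ieCPCs) at passage 3 and at passage 12, and the cardiac derivatives labelled CM. The question the series addresses is how the transcriptome differs along the route from fibroblast to expandable progenitor and on to cardiac cells.

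All 5 groups share a mixed strain background, C57BL/6 with 129J/SvE, and a genotype given as Wildtype (WT). Secondary MEFs are known to descend from cells that carry inducible reprogramming factors, and the labels cite their earlier derivation. Day 9 cultures had 6 days of reprogramming medium and 2 days of transdifferentiation medium, followed by 1 day of ieCPC basal medium with BACS, and the labels mention no sort for them. The ieCPCs were sorted on day 13 and kept in the basal medium with BACS. CM derivatives are ieCPCs after 25 days of a serum-free differentiation medium, and the labels do not give the passage of the ieCPCs they came from. The labels also do not say whether the 3 libraries of a group came from separate cultures. If they did not, the p-values below measure only the spread between these libraries, which may be technical.

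Imprinted genes are expressed mainly from the copy inherited from 1 parent. In this domain Dlk1, Rtl1 and Dio3 encode proteins and are expressed from the paternal copy, while Meg3, Rian and Mirg are noncoding RNAs expressed from the maternal copy and host many small nucleolar RNAs (snoRNAs) and microRNA (miRNA) hairpins. DNA methylation of an intergenic control region between Dlk1 and Meg3, set on the paternal copy in the germ line, keeps the copies apart, and silencing of the maternal noncoding RNAs is known from some mouse induced pluripotent stem cell lines. The counts used here do not separate the parental copies, and no methylation was measured.

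On the build of the deposited table, mm9, the domain is read as follows. Dlk1 (ENSMUSG00000040856) lies at chr12:110691033-110701546 on the plus strand, and Meg3 (ENSMUSG00000021268) at chr12:110779211-110809936 on the plus strand. Rtl1 (ENSMUSG00000085925) lies at chr12:110827404-110838540 on the minus strand. Rian (ENSMUSG00000091793) at chr12:110842155-110899919 and Mirg (ENSMUSG00000091158) at chr12:110973191-110987665 follow on the plus strand, and Dio3 (ENSMUSG00000075707) at chr12:111517278-111519307 closes the span of 828.275 kb. The table gives exon lengths of 5657 bases for Dlk1, 18089 for Meg3, 6357 for Rtl1, 8197 for Rian, 3175 for Mirg and 2030 for Dio3.

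The promoters of Meg3 and Dlk1 are shown because these neighbours differed by very unequal factors between the passages of ieCPCs. Both are from RefSeq on GRCm38.p6, plus strand, with 250 bases before and 50 bases after the annotated start, at chr12:109540746-109541045 for Meg3 and chr12:109452573-109452872 for Dlk1. Capitals mark, in order, GCGGCA (the reverse complement of TGCCGC, the hexamer bound by ZFP57 when methylated), CCAAT, TGACGTCA (the cAMP response element) and a stretch that holds TATAAA on both strands, the pair overlapping.
Meg3: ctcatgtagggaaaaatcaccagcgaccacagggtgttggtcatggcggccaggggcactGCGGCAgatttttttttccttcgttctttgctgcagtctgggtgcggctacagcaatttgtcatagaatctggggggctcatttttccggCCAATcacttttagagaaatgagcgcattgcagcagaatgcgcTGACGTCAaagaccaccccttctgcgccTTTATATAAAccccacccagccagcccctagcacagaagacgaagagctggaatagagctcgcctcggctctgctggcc
Dlk1: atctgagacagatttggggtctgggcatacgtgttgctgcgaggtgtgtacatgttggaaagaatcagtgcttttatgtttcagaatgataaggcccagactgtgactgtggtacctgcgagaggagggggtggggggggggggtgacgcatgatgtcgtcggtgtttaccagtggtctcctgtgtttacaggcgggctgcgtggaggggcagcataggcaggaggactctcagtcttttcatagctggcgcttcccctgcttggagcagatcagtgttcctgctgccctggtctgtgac
The 4 motifs were searched on both strands, and none of them is in the Dlk1 window. Of 32851 RefSeq promoter windows of this length, 11.6% hold TGCCGC, 37.4% hold CCAAT, 1.79% hold TGACGTCA and 13.6% hold TATAAA. The Meg3 window has 13 CG dinucleotides and the Dlk1 window 9, against a median of 7 over all windows. RefSeq's table gives a second Meg3 start, whose window at chr12:109545148-109545447 has 1 CG dinucleotide and none of the 4 motifs. The Dio3 window has 25 CG dinucleotides, the Mirg window 10 and the Rian window 0, which 5.43% of all windows share. RefSeq's table gave a window for 5 of the 6 members. A match is a string of letters in these windows, not evidence of binding.

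The mature miRNAs below come from hairpins that lie between Meg3 and Mirg. Their hairpin rows had enough counts to be tested, or they share a seed with one of these. In all 15 mature miRNAs met this rule, and only some of them are printed. The sequences are from RefSeq on GRCm38.p6, 5′ to 3′, with the seed (bases 2 to 8) in capitals.
mmu-miR-134-5p: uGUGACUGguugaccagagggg
mmu-miR-1188-5p: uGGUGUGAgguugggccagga
mmu-miR-667-3p: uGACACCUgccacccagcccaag
mmu-miR-379-5p: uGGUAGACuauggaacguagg
mmu-miR-1193-5p: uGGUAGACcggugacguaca
mmu-miR-379-3p: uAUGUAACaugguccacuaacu
mmu-miR-411-3p: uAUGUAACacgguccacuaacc
The 5p arms of miR-379 and miR-1193 share 1 seed, and the 3p arms of miR-379 and miR-411 share another. Of 49 hairpin rows inside the cluster, 48 matched RefSeq entries with 89 mature miRNAs in all. These carry 84 seeds, of which 5 are shared by 2 mature miRNAs each. The libraries were made from total RNA by a standard protocol, so reads over a hairpin row come from longer RNAs and do not measure the mature miRNA.

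Library totals ran from 21823056 to 29996464 counts, and a library had 21406 to 23226 rows with at least 1 count. Levels are counts per 1000000 counts of a library after TMM scaling (CPM), and 17999 rows passed the filter on low counts, all 6 members among them. Of rows other than the members, rose and fell are written where edgeR's quasi-likelihood test gave an adjusted p under 0.05 over all these rows. Mitochondrial ribosomal RNA took 18.1% to 50.1% of the counts, with 44.3% to 50.1% in CM libraries. CM replicate 3, with the highest of these shares, stood apart from its group, so the CM comparisons are also given without it. Cardiomyocyte markers summed to 4929 to 9936 CPM in CM libraries, 59.9 to 73.5 CPM in P12 ieCPCs and 48.6 to 58.6 CPM in P3 ieCPCs, with 3.38 to 4.21 CPM and Myl7 at 0 in MEFs. Markers of the cardiac progenitor summed to 667 to 686 CPM in P12 ieCPCs and 572 to 584 CPM in P3 ieCPCs. They summed to 659 to 844 CPM in CM libraries, 129 to 133 CPM in day 9 libraries and 201 to 213 CPM in MEFs. Single markers went both ways with passage. Pdgfra averaged 270 CPM in P12 and 154 CPM in P3 ieCPCs, but Gata4 28.9 and 75.4 CPM and Tbx20 180 and 205 CPM. Nkx2-5 was at 0 in day 9 cultures and in MEFs. Of the fibroblast markers, collagens such as Col1a1 were high in all 5 groups, at 3429 CPM on average in CM derivatives and 5078 CPM in MEFs. Thy1 averaged 415 CPM in MEFs, 54.5 CPM in day 9 cultures, 1.18 CPM in P3 ieCPCs, 5.23 CPM in P12 ieCPCs and 12.0 CPM in CM derivatives.

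Dlk1 encodes a transmembrane protein with EGF-like repeats, related to Notch ligands and known to hold back adipocyte formation. It had 46.0, 36.0 and 44.3 CPM in MEFs, 15.25, 15.13 and 12.204 CPM in day 9 cultures and 563, 600 and 564 CPM in P3 ieCPCs. P12 ieCPCs had 434, 445 and 444 CPM and CM derivatives 213, 227 and 195 CPM. The order of the groups was P3 ieCPCs, P12 ieCPCs, CM derivatives, MEFs and day 9 cultures from high to low, and no neighbours in it overlapped. The group means were 42.1 ± 5.31, 14.2 ± 1.73, 575 ± 20.9, 441 ± 5.79 and 212 ± 16.0 CPM (SD, n = 3 each) in the order of the stages. The library with the fewest Dlk1 reads, a day 9 culture, had 357 counts. In bulk RNA, fewer cells of a type and less RNA per cell cannot be told apart.

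Rtl1, a retrotransposon-derived gene needed for the capillaries of the mouse placenta, varied least among MEFs, day 9 cultures and ieCPCs. Its level was 6.29, 7.01 and 5.48 CPM in MEFs, 11.1, 7.93 and 10.1 CPM in day 9 cultures, 7.09, 8.07 and 6.999 CPM in P3 ieCPCs and 6.31, 6.19 and 6.28 CPM in P12 ieCPCs. CM derivatives, at 1.68, 2.26 and 1.71 CPM, were below every other library. P3 ieCPCs overlapped with day 9 cultures and with MEFs, and P12 ieCPCs with MEFs, while each P12 library was below each P3 library. Rtl1 is transcribed against the maternal noncoding RNAs, which cross it on the other strand, and the strand setting of the counting is not given in the sources used here. Sense and antisense reads over Rtl1 therefore cannot be told apart.

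Dio3, the deiodinase that inactivates thyroid hormones, was near the lower limit of detection in every group. It had 3, 0 and 5 counts in MEFs, 0, 5 and 3 counts in day 9 cultures, 21, 16 and 17 counts in P3 ieCPCs, 15, 17 and 23 counts in P12 ieCPCs and 6, 14 and 0 counts in CM derivatives. Both passages of ieCPCs were above every MEF and day 9 library, and CM derivatives overlapped with all groups. A library at 0 counts allows up to 3 counts. The mean level was 0.634 ± 0.102 CPM in P3 ieCPCs and 0.699 ± 0.179 CPM in P12 ieCPCs (SD, n = 3 each).

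Meg3, a long noncoding RNA at the head of the maternal transcripts, had 111, 104 and 99.5 CPM in MEFs, 169, 159 and 161 CPM in day 9 cultures and 60.0, 63.2 and 63.1 CPM in P3 ieCPCs. In P12 ieCPCs it had 0.342, 0.549 and 0.628 CPM, from 9, 15 and 16 counts. CM derivatives had 22.3, 37.7 and 23.9 CPM. No neighbours overlapped in the order of day 9 cultures, MEFs, P3 ieCPCs, CM derivatives and P12 ieCPCs.

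Rian, which hosts C/D-box snoRNAs in its introns, had 183, 184 and 170 CPM in MEFs, 176, 182 and 176 CPM in day 9 cultures and 73.7, 75.7 and 75.4 CPM in P3 ieCPCs. It had 2.81, 3.11 and 3.38 CPM in P12 ieCPCs and 23.4, 26.6 and 20.6 CPM in CM derivatives. MEFs and day 9 cultures overlapped, and the other groups followed in the same order as for Meg3 with no overlap. Scaled to the plain library total, Rian was at 213 CPM in day 9 cultures and 177 CPM in MEFs, so a statement that these 2 groups were level rests on the scaling.

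Mirg, a host of miRNA hairpins, had the lowest CPM of the 3 noncoding members in every group. It had 7.98, 7.13 and 6.88 CPM in MEFs, 11.1, 9.41 and 11.2 CPM in day 9 cultures, 3.24, 4.24 and 3.22 CPM in P3 ieCPCs, 0.190, 0.0366 and 0.314 CPM in P12 ieCPCs and 0.895, 1.52 and 0.979 CPM in CM derivatives. The P12 values come from 5, 1 and 8 counts. The order of the groups was that of Meg3, with no overlap between neighbours.

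**Figure D1:**
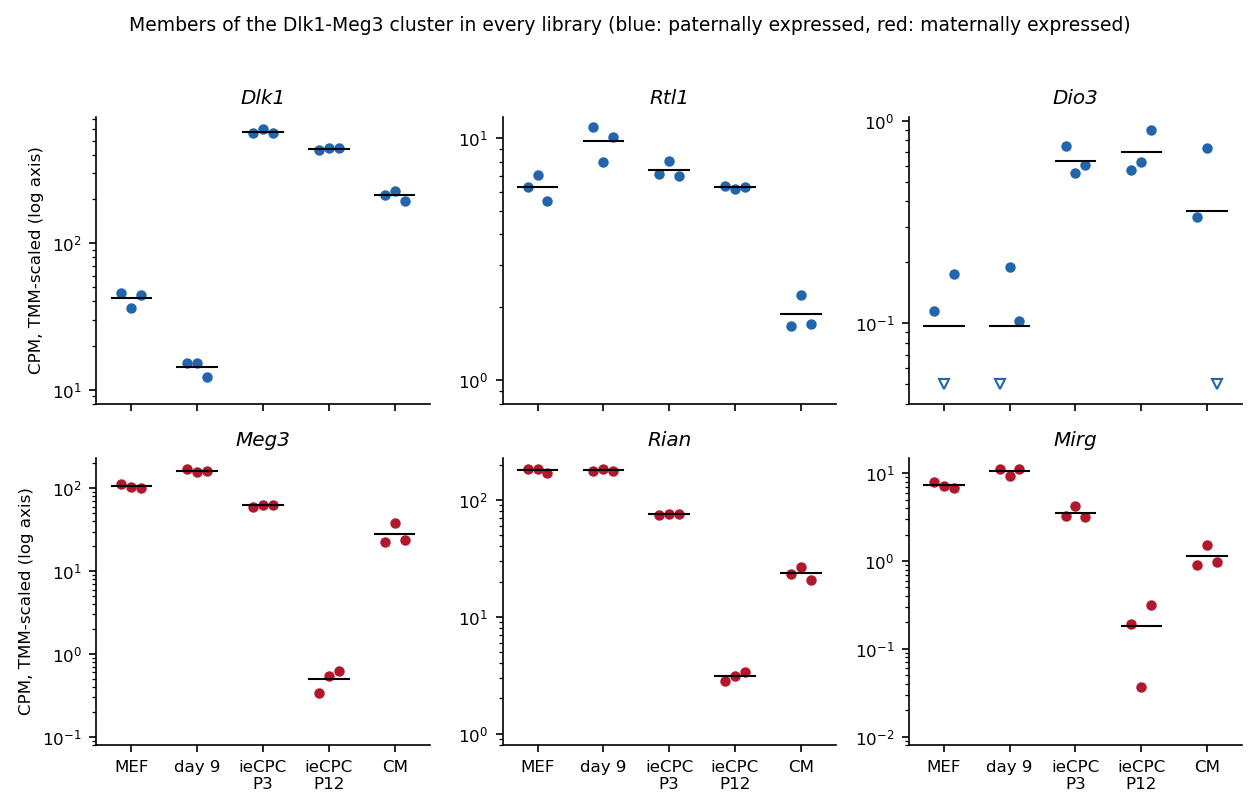
Level of each member in every library, in CPM scaled by TMM on a log axis, by group from MEFs to CM derivatives. Points are libraries and bars group means of 3, and open triangles stand for libraries with 0 counts of Dio3. Meg3, Rian and Mirg are lowest in the 3 P12 ieCPC libraries, where Dlk1 stays between 434 and 445 CPM.

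P12 against P3 ieCPCs asks what continued passaging changed, and here the domain split along its parental sets. Meg3 averaged 0.507 ± 0.148 CPM in P12 ieCPCs and 62.1 ± 1.80 CPM in P3 ieCPCs (SD, n = 3 each), a fitted difference of 121.5-fold and a log2 fold change of -6.93 ± 0.20 (SE). Of 17999 tested rows ordered by log2 fold change, Meg3 was at place 3 from the lowest. Rian averaged 3.101 ± 0.282 CPM in P12 ieCPCs and 75.0 ± 1.06 CPM in P3 ieCPCs, a log2 fold change of -4.59 ± 0.09. Mirg averaged 0.180 ± 0.139 CPM in P12 ieCPCs and 3.57 ± 0.586 CPM in P3 ieCPCs, with a log2 fold change of -4.30 ± 0.31 that was -4.94 without P12 replicate 3. The noncoding members were not at 0: Rian kept 74, 85 and 86 counts in the P12 libraries, against 2071, 2194 and 2134 counts in P3 libraries.

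The paternally expressed members differed far less between the passages. Dlk1 was 1.30-fold lower in P12 than in P3 ieCPCs, with a log2 fold change of -0.38 ± 0.07. Rtl1 had -0.24 ± 0.13 and Dio3 0.14 ± 0.51 on the log2 scale. Members more than 2-fold lower in P12 ieCPCs were thus 3 of 6, and 0 of 6 were more than 2-fold higher. Of all tested rows, 4.98% were called more than 2-fold lower and 5.66% more than 2-fold higher in this comparison by edgeR's quasi-likelihood test at an adjusted p under 0.05. The members were chosen with this contrast known, so nothing is read from that count. Markers of other cell types differed between the same groups. Smooth muscle markers, 5 of 5 detected, summed to 2769 to 2971 CPM in P12 ieCPCs, 1527 to 1585 CPM in P3 ieCPCs and 2893 to 2949 CPM in MEFs. Most of the sum was Acta2, at 2551 CPM on average in P12 and 1393 CPM in P3 ieCPCs. Smtn alone of the 5 was lower in P12 ieCPCs, at 45.2 CPM against 47.1 CPM. Skeletal muscle markers, 6 in number, summed to 34.2 to 40.0 CPM in P12 ieCPCs and 16.5 to 19.7 CPM in P3 ieCPCs. Only 2 of the 6 averaged at least 1 CPM in P12 ieCPCs and 1 in P3 ieCPCs, so the sums rest on very few genes. Myod1 and Pax7 were at 0 in P3 ieCPCs. Neural markers summed to 52.8 to 53.7 CPM in P12 ieCPCs and 40.2 to 47.2 CPM in P3 ieCPCs. Stmn2 alone had 28.4 CPM in P12 and 0.362 CPM in P3 ieCPCs, and the other neural markers together were lower in P12 ieCPCs. The part of such cells in the members' differences was not tested.

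CM derivatives against P12 ieCPCs, a comparison across differentiation, ran the other way for the noncoding members. Meg3 averaged 27.9 ± 8.47 CPM in CM derivatives and 0.507 ± 0.148 CPM in P12 ieCPCs, a 54.9-fold higher level and a log2 fold change of 5.78 ± 0.22. Rian was 7.60-fold higher and Mirg 6.30-fold higher in CM derivatives, with log2 fold changes of 2.93 ± 0.10 and 2.66 ± 0.41. Dlk1 was 2.08-fold lower in CM derivatives, and Rtl1 had a log2 fold change of -1.72 ± 0.17. Without CM replicate 3, Meg3 was 58.7-fold, Rian 8.02-fold and Mirg 6.68-fold higher in CM derivatives, and Dlk1 was 2.01-fold and Rtl1 3.18-fold lower. Mirg had a log2 fold change of 3.29 without P12 replicate 3 and 2.16 without P12 replicate 2. The size of these differences rests on the scaling. Over plain library totals, the ratio of group means in CM derivatives was 29.0-fold higher for Meg3, 3.99-fold higher for Rian and 3.31-fold higher for Mirg, and 3.97-fold lower for Dlk1 and 6.33-fold lower for Rtl1. The other fold changes of CM derivatives are likewise on the TMM scale. Members past 2-fold were 5 of 6, beside 15.5% of all tested rows called more than 2-fold higher and 11.0% more than 2-fold lower by edgeR's test.

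Set against P3 ieCPCs, all the members other than Dio3 were more than 2-fold lower in CM derivatives. The Meg3 level was 2.21-fold lower, Rian 3.18-fold, Mirg 3.12-fold, Dlk1 2.71-fold and Rtl1 3.90-fold lower. Without CM replicate 3 these were 2.07-fold for Meg3, 3.01-fold for Rian, 2.94-fold for Mirg, 2.62-fold for Dlk1 and 3.75-fold for Rtl1. Dio3 had a log2 fold change of -0.76 ± 0.61, which was -0.23 without CM replicate 3 and -1.84 without CM replicate 2. Over plain library totals the group means in CM derivatives were 4.39-fold lower for Meg3, 6.30-fold for Rian, 6.22-fold for Mirg, 5.38-fold for Dlk1, 7.77-fold for Rtl1 and 3.36-fold for Dio3. Of all tested rows, 9.69% were called more than 2-fold lower. As the passage from which the CM derivatives were made is not given, the Meg3, Rian and Mirg levels of CM derivatives, which lie between those of the P12 and the P3 ieCPCs, can be set beside both but assigned to neither as their start.

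P3 ieCPCs against day 9 cultures asks what distinguishes the sorted and expanded progenitors from the mixed cultures before them. Dlk1 was 40.6-fold higher in P3 ieCPCs, at 575 ± 20.9 CPM, against 14.2 ± 1.73 CPM in day 9 cultures, with a log2 fold change of 5.34 ± 0.09. Dio3 was also higher, by 2.69 ± 0.71 on the log2 scale and by 3.53 without day 9 replicate 2. The noncoding members went the opposite way in P3 ieCPCs: Meg3 was 2.63-fold, Rian 2.38-fold and Mirg 2.96-fold lower. Rtl1 was 1.32-fold lower. Called more than 2-fold higher were 9.96% of all tested rows and more than 2-fold lower 13.3%, beside 2 of 6 and 3 of 6 members.

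The same sides of 0 held for 5 members when P3 ieCPCs were set against MEFs, though the 2 comparisons share the P3 libraries. Dlk1 was 13.7-fold higher in P3 ieCPCs than in MEFs, and Dio3 6.07-fold higher, its log2 fold change of 2.60 being 3.32 without MEF replicate 3. Meg3 was 1.69-fold, Rian 2.39-fold and Mirg 2.05-fold lower. Rtl1 had a log2 fold change of 0.24 ± 0.13. Of all tested rows 16.9% were called more than 2-fold higher and 11.2% more than 2-fold lower, beside 2 of 6 members in each direction.

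Day 9 cultures against MEFs gives the first step of the route. Dlk1 was 2.97-fold lower in day 9 cultures, the member with the greatest difference here, where 5.28% of all tested rows were called more than 2-fold lower. Meg3 was 1.55-fold, Mirg 1.45-fold and Rtl1 1.56-fold higher in day 9 cultures. Rian had a log2 fold change of -0.01 ± 0.06. Dio3 had 8 counts over the 3 day 9 libraries and 8 counts over the MEF libraries. Pluripotency markers summed to 319 to 348 CPM in day 9 libraries and 0.521 to 1.23 CPM in MEFs, and macrophage markers to 5.39 to 6.26 CPM in day 9 libraries and 70.6 to 74.0 CPM in MEFs. The part of these cell types in the members' differences was not tested.

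To compare the members with each other, CPM was divided by exon length in kb. Per kb, Rian was the highest member in MEFs and day 9 cultures, at 21.8 and 21.7 CPM per kb, and Dlk1 was the highest in P3 ieCPCs, P12 ieCPCs and CM derivatives, at 102, 78.0 and 37.5 CPM per kb. The summed level per kb of Meg3, Rian and Mirg was 29.9 ± 1.36 in MEFs, 34.1 ± 0.194 in day 9 cultures, 13.7 ± 0.364 in P3 ieCPCs, 0.463 ± 0.0716 in P12 ieCPCs and 4.77 ± 0.902 in CM derivatives. That of Dlk1, Rtl1 and Dio3 was 8.47 ± 0.888, 4.09 ± 0.329, 103 ± 3.75, 79.3 ± 1.07 and 37.9 ± 3.04 in the same order (SD, n = 3 each). The noncoding members therefore gave 77.9% ± 2.08 of the summed level in MEFs and 89.3% ± 0.714 in day 9 cultures, then 11.7% ± 0.195 in P3 ieCPCs, 0.580% ± 0.0851 in P12 ieCPCs and 11.1% ± 1.16 in CM derivatives. The share was thus about as large in CM derivatives as in P3 ieCPCs, while both summed levels were lower in CM derivatives. Without CM replicate 3 the share in CM derivatives was 11.3% and the summed levels were 5.08 and 39.5 CPM per kb.

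**Figure D2:**
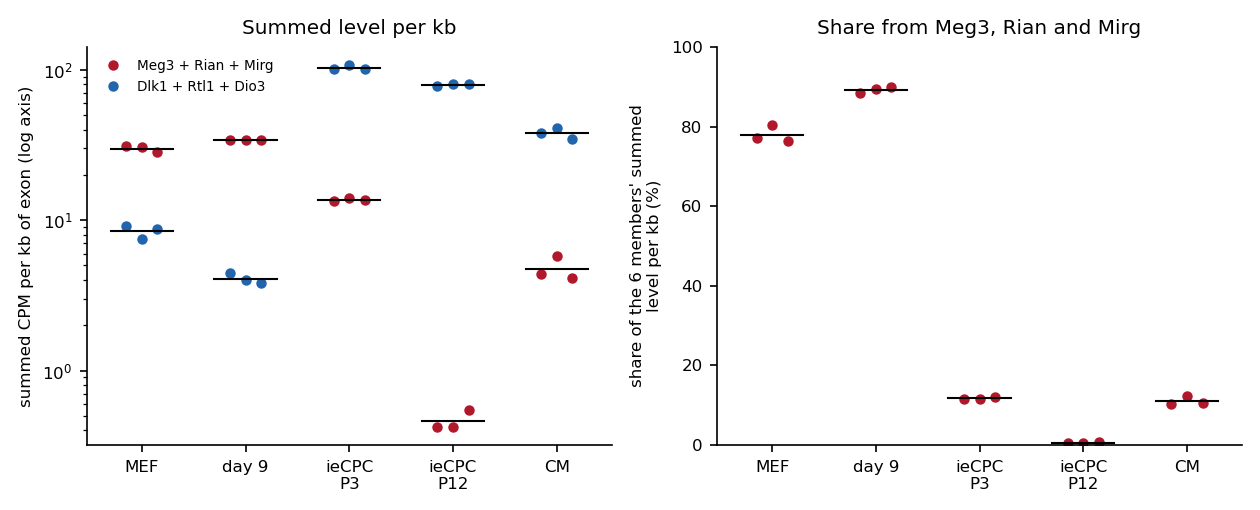
Left, summed level per kb of exon of the 3 noncoding and the 3 protein-coding members in each library, on a log axis; right, the share of the 6 members' summed level that came from Meg3, Rian and Mirg, in percent. Points are libraries and bars group means of 3. The share was 76.4% to 80.3% in MEFs, and 0.525% to 0.678% in P12 ieCPCs.

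The noncoding members did not keep fixed proportions to each other. Rian over Meg3, per kb, was 3.76 ± 0.140 in MEFs, 2.41 ± 0.121 in day 9 cultures, 2.67 ± 0.0407 in P3 ieCPCs, 14.2 ± 3.46 in P12 ieCPCs and 1.93 ± 0.380 in CM derivatives (SD, n = 3 each). The 3 P12 libraries had ratios of 18.1, 12.5 and 11.9, above every other library, Meg3 being lower in them by a larger factor than Rian. Mirg over Meg3 was 0.327 ± 0.0490 in P3 ieCPCs and 0.231 ± 0.00246 in CM derivatives, and in P12 ieCPCs it ran from 0.380 to 3.17 on 1 to 8 counts of Mirg. Rtl1 over Dlk1 was 0.0126 ± 0.000279 in P12 ieCPCs and 0.0114 ± 0.000501 in P3 ieCPCs, against 0.618 ± 0.139 in day 9 cultures.

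Between Dlk1 and Dio3 the table holds 82 further rows, of which 80 are short: 49 miRNA hairpins, 23 snoRNAs and 8 short rows with no gene name. The rule for the members did not use these rows, but they come from the same libraries and largely from the same transcripts as the noncoding members. Their summed counts were 782, 716 and 821 in the MEF libraries, 1398, 1101 and 1297 in day 9 libraries, 448, 428 and 489 in P3 ieCPC libraries, 9, 15 and 19 in P12 ieCPC libraries and 106, 126 and 101 in CM libraries. No groups overlapped in this sum. Its level was 0.546 ± 0.202 CPM in P12 ieCPCs and 16.0 ± 1.26 CPM in P3 ieCPCs (SD, n = 3 each), 29.3-fold lower in P12 ieCPCs, and at 6.24 ± 0.344 CPM in CM derivatives it was 11.4-fold above P12 ieCPCs, and 11.5-fold without CM replicate 3. For 3 libraries against 3 the smallest p of an exact permutation test is 0.1, so the sums are given without one.

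The snoRNAs and the hairpins ran in parallel. The snoRNA rows had 1751 counts in MEFs, 2803 in day 9 cultures, 1036 in P3 ieCPCs, 33 in P12 ieCPCs and 239 in CM derivatives. The hairpin rows had 480, 830, 277, 10 and 84 counts in the same order, and the unnamed short rows 88, 163, 52, 0 and 10. Of the 54 short rows with at least 10 counts over the 15 libraries, 48 were highest in day 9 cultures. In P12 ieCPCs 50 were lowest, a number that takes in rows at 0 counts in CM derivatives as well, such as Mir411 and Mir382. The tally therefore does not place P12 ieCPCs below CM derivatives for each of these rows. In the P12 libraries 19 of the 80 short rows had any count, and in the P3 libraries 60.

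The largest single row was a SNORD113 snoRNA in a Rian intron (ENSMUSG00000064452). SNORD113 RNAs are C/D-box snoRNAs with no known target in ribosomal RNA. Its level was 5.94 ± 0.322 CPM in MEFs, 10.3 ± 0.942 in day 9 cultures, 2.62 ± 0.476 in P3 ieCPCs, 0.115 ± 0.0703 in P12 ieCPCs and 1.18 ± 0.255 CPM in CM derivatives (SD, n = 3 each). It fell in P12 ieCPCs, with a log2 fold change over P3 ieCPCs of -4.47 ± 0.31 and an adjusted p of 6.27e-11 by edgeR's quasi-likelihood test, and was lower in 3 of 3 libraries. In CM derivatives it rose 9.85-fold over P12 ieCPCs, with an adjusted p of 1.14e-07 by edgeR's test, and 8.67-fold without CM replicate 3.

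Among the hairpins, Mir134 had 65 counts over the MEF libraries, 83 in day 9 cultures, 22 in P3 ieCPCs, 0 in P12 ieCPCs and 5 in CM derivatives. Placing 3 counts over the P12 group, it was at least 6.78-fold lower in P12 than in P3 ieCPCs, a bound that leaves out the error of the 22 counts. The CM and P12 libraries overlapped, and no fold is given for the 5 counts of CM derivatives. Mir1188 had 51, 137, 32, 1 and 9 counts in the same order of stages, and Mir379, of the shared seeds above, had 30, 29, 12, 1 and 4 counts. Mir667 went the other way at the first step, with 25 counts in day 9 cultures and 58 in MEFs, a log2 fold change of -1.32 ± 0.43. Of the 54 short rows with at least 10 counts, 5 were highest in MEFs, Mir667 among them. Its MEF counts helped it past the filter on low counts, so no test result is given for it.

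Under the filter on low counts 23 of the 82 rows were tested, and most passed it through the groups in which they were high, so their counts of calls support nothing by themselves. In P12 against P3 ieCPCs 20 of the 23 fell and 0 rose, beside 19.5% of all tested rows called lower. In CM derivatives against P12 ieCPCs 12 rose and 0 fell, beside 31.3% called higher. In day 9 cultures against MEFs 10 rose and 1 fell, beside 29.7% called higher, and in P3 ieCPCs against day 9 cultures 20 fell and 0 rose, beside 32.3% called lower. When only the 6 libraries of P12 and P3 ieCPCs were filtered and fitted, 4 rows were tested and all 4 of these fell. With no filter beyond 1 count, 31 rows fell. The 1 fall of day 9 cultures against MEFs was lost without MEF replicate 1, and nothing is read from it. Without day 9 replicate 1 there was 1 rise in P3 ieCPCs against day 9 cultures.

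**Figure D3:**
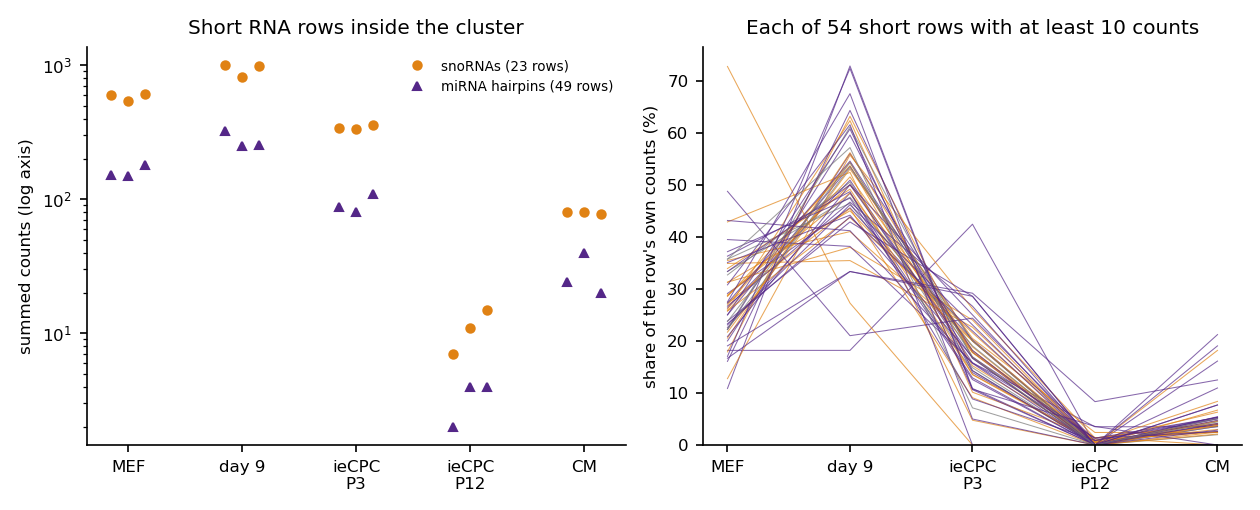
Left, counts summed over the 23 snoRNA rows and over the 49 miRNA hairpin rows inside the cluster in each library, on a log axis; right, for each of the 54 short rows with at least 10 counts, the share of its own counts that fell in each group, in percent. Lines join the groups of 1 row, orange for snoRNAs, purple for hairpins and grey for unnamed rows. The 3 P12 ieCPC libraries hold 7, 11 and 15 snoRNA counts.

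Short rows inside exons of the members had few or no counts. The 11 snoRNA rows in Rian introns held 4828 counts and the 10 between annotated members 1034 counts, while the 2 in Rian exons held 0. The 6 hairpin rows in Rtl1 exons and the 2 in Meg3 exons also held 0, and the 4 in Mirg exons held 8. Over the whole table, 120 of 120 rows that lay inside an exon of another gene on the same strand and 25 of 25 on the opposite strand had 0 counts, where that gene had at least 10000 counts. The 4 unnamed short rows on the minus strand held 30 counts in MEFs, 64 in day 9 cultures, 20 in P3 ieCPCs, 0 in P12 ieCPCs and 2 in CM derivatives. A count of 0 for a row in a member's exon is therefore not read as absence of that RNA.

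Dio3os, a noncoding RNA beside Dio3, was one of the 2 longer rows inside the cluster and did not follow the maternal transcripts. It had 2 counts over the MEF libraries, 8 in day 9 cultures, 19 in P3 ieCPCs, 16 in P12 ieCPCs and 63 in CM derivatives. Its level was 1.17 ± 0.306 CPM in CM derivatives and 0.204 ± 0.102 CPM in P12 ieCPCs. It was higher in CM derivatives by 2.51 ± 0.48 on the log2 scale against P12 ieCPCs and by 2.37 ± 0.47 against P3 ieCPCs. Without CM replicate 3 the differences were 2.67 over P12 and 2.54 over P3 ieCPCs. Dio3os passed the filter on low counts through the CM libraries, where it was high, so no test result is given for it. Its partner Dio3 had 20 counts in CM derivatives and 55 in P12 ieCPCs. The other longer row, Gm17639 in a Meg3 exon, had 0 counts.

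Genes outside the domain were compared to see whether the difference between passages extended along the chromosome. Within 1 Mb of the ends of the cluster, 24 of 34 rows were tested. In P12 against P3 ieCPCs 5 of the 24 rose, 1 fell and 18 did not pass the test, beside 36.8% of all tested rows called in either direction, a share that holds 3122 higher and 3507 lower rows and 3935 higher and 2752 lower rows under upper-quartile scaling. The risers were Zfp839 by 0.66, Hsp90aa1 by 0.46, Eml1 by 0.39, Tecpr2 by 0.36 and Traf3 by 0.23 on the log2 scale, and Rcor1 fell by 0.23. Without CM replicate 3 in the shared model 2 flanking rows fell. The nearest tested gene before Dlk1, Begain, had 1.42 ± 0.292 CPM in P12 ieCPCs and 1.26 ± 0.280 CPM in P3 ieCPCs. The nearest after Dio3, Ppp2r5c, a regulatory subunit of protein phosphatase 2A, had 60.1 ± 0.545 CPM in P12 ieCPCs and 62.1 ± 0.669 CPM in P3 ieCPCs. Neither of these passed the test, and none of the 24 tested rows was past 2-fold. Among the rows not tested, Mir342 had 2 counts in P12 ieCPCs and 13 in P3 ieCPCs, and Gm17712 had 4 counts in P12 ieCPCs and 10 in P3 ieCPCs.

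**Figure D4:**
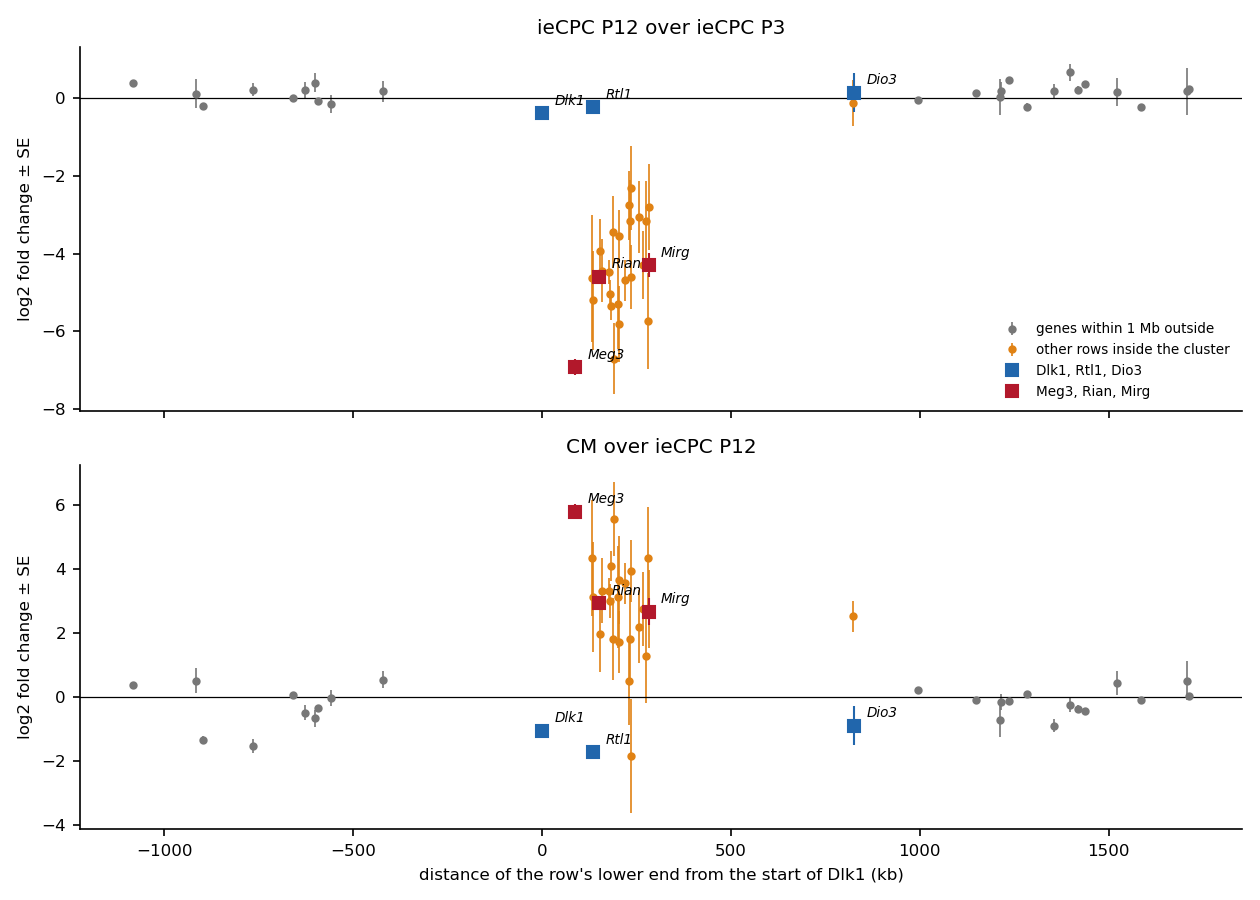
Fitted log2 fold change with its SE for every tested row within 1 Mb of the cluster, by distance of its lower end from the start of Dlk1 in kb; above, P12 over P3 ieCPCs, and below, CM derivatives over P12 ieCPCs. Squares are members, orange points the other rows inside the cluster and grey points genes outside. Meg3 is at -6.93 in the upper panel and at 5.78 in the lower, and the outside genes of the upper panel lie between -0.23 and 0.66.

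In CM derivatives against P12 ieCPCs 2 of the 24 flanking rows rose, 1 of them under upper-quartile scaling, and 8 fell, 41.7% of the 24, beside 62.1% of all tested rows called. Evl, an actin regulator of the Ena/VASP family, fell by 1.35 ± 0.11 on the log2 scale, to 4.37 ± 0.380 CPM in CM derivatives against 11.1 ± 0.571 CPM in P12 ieCPCs. Degs2, a sphingolipid enzyme, fell by 1.54 ± 0.22. Ppp2r5c rose by 0.22 ± 0.05. The greatest log2 fold change among the flanking rows was 0.53, for Begain, which did not pass the test.

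The proteins that set, keep or remove methylation at imprinting control regions, or act on the chromatin of this domain, were taken as a list of 20, of which 19 were tested. In P12 against P3 ieCPCs 1 rose and 7 fell, 42.1% of the 19. Of all tested rows 36.8% were called, a share near it, with 17.3% higher and 19.5% lower. The median log2 fold change of the list was -0.02, beside -0.0012 for all tested rows. Under upper-quartile scaling 2 rose and 4 fell. Without CM replicate 2 or CM replicate 3, which share in the model's estimate of spread, 2 rose. Aff3, a factor known to bind the control region of this domain, rose by 0.97 ± 0.07 on the log2 scale, to 61.3 ± 3.25 CPM in P12 ieCPCs against 31.3 ± 1.55 CPM in P3 ieCPCs. Zfp57, which guards methylation of imprinting control regions, fell by 0.45 ± 0.07, to 66.1 ± 6.13 CPM in P12 ieCPCs against 90.1 ± 3.87 CPM in P3 ieCPCs. Of the enzymes that add methyl groups anew, Dnmt3b fell by 0.65 ± 0.10 and Dnmt3a by 0.21 ± 0.06. Tet3, which oxidises methylcytosine, fell by 0.61 ± 0.06, and Jarid2, a Polycomb partner, by 0.76 ± 0.06, and Eed and Ctcf were the other 2. The maintenance methyltransferase Dnmt1 had 119 ± 1.85 CPM in P12 ieCPCs and 107 ± 0.752 CPM in P3 ieCPCs, and Trim28, Uhrf1, Tet1 and Tet2 also did not pass the test.

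The same list was mostly lower in CM derivatives, where 17 of 19 fell and 1 rose against P12 ieCPCs, beside 30.8% of all tested rows called lower. Aff3 fell by 2.65 ± 0.08 on the log2 scale, to 9.76 ± 1.16 CPM in CM derivatives against 61.3 ± 3.25 CPM in P12 ieCPCs. Uhrf1 fell by 1.97 ± 0.11, Dnmt3b by 1.81 ± 0.13 and Dnmt1 by 1.33 ± 0.07. In day 9 cultures against MEFs 12 of 19 rose and 3 fell, beside 57.2% of all tested rows called in either direction. Dnmt3b rose there by 4.63 ± 0.11, to 99.97 ± 1.18 CPM in day 9 cultures against 4.05 ± 0.667 CPM in MEFs, and Tet1 by 1.84 ± 0.13. In P3 ieCPCs against day 9 cultures 5 rose and 9 fell, beside 60.7% called in either direction, and Dnmt3b fell by 2.22 ± 0.09 while Dnmt3a rose by 1.48 ± 0.06 and Zfp57 by 1.03 ± 0.07. Against MEFs, 14 rose in P3 ieCPCs and 0 fell, beside 33.3% called higher and 65.8% in either direction. Against P3 ieCPCs, 1 rose in CM derivatives and 17 fell, beside 31.2% called lower. Against MEFs, 1 gene fell in P3 ieCPCs without MEF replicate 1 or 2, P3 replicate 3 or CM replicate 2, and 2 fell without CM replicate 3, the model being shared by all groups.

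Of 38 imprinted genes of other domains, all tested, 15 rose and 10 fell in P12 against P3 ieCPCs, beside 17.3% of all tested rows called higher and 19.5% lower, with a median log2 fold change of 0.14. The largest rises were those of Rasgrf1, by 2.57 ± 0.21, Phlda2, by 1.94 ± 0.15, and Cdkn1c, an inhibitor of the cell cycle, by 1.53 ± 0.06. Ppp1r9a had the largest fall, by 1.48 ± 0.09. The log2 fold changes of this list lay between -1.48 and 2.57, beside the -4.30 of Mirg, the -4.59 of Rian and the -6.93 of Meg3. In CM derivatives against P12 ieCPCs 7 rose and 24 fell, beside 31.3% called higher and 30.8% lower, with log2 fold changes of -5.75 ± 0.26 for Phlda2 and -4.57 ± 0.10 for Nnat.

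In P3 ieCPCs against day 9 cultures 24 rose and 8 fell, beside 28.4% of all tested rows called higher, and the median log2 fold change was 0.95 beside -0.03 for all tested rows. Igf2, a paternally expressed growth factor, rose 47.8-fold, with 20247 ± 540 CPM in P3 ieCPCs, against 424 ± 4.01 CPM in day 9 cultures, and Plagl1, a zinc finger protein, rose by 5.48 ± 0.08 on the log2 scale. In day 9 cultures against MEFs 20 rose and 10 fell, beside 29.7% of all tested rows called higher and 27.4% lower, and Igf2 fell by 4.12 ± 0.06. P3 ieCPCs against MEFs gave 26 rises and 5 falls, beside 33.3% and 32.5% of all rows, and CM derivatives against P3 ieCPCs 5 rises and 22 falls, beside 31.9% and 31.2%.

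Dlk1 protein is shed by Adam17 and acts near the Notch pathway and on adipocyte and cartilage genes, which made a list of 21 genes with 19 tested. In P12 against P3 ieCPCs 4 rose and 7 fell, beside 17.3% of all tested rows called higher and 19.5% lower. The Notch targets split, with Hes1 falling by 0.84 ± 0.09, and Hey1 rising by 0.73 ± 0.11 and Hey2 by 0.71 ± 0.22. Sox9, a cartilage regulator that Dlk1 is known to act through in mouse preadipocytes, fell by 0.66 ± 0.08, to 59.6 ± 1.04 CPM in P12 ieCPCs against 94.4 ± 1.24 CPM in P3 ieCPCs. In P3 ieCPCs against day 9 cultures 4 rose and 8 fell, beside 60.7% called, and Sox9 rose by 2.55 ± 0.09. A part of Dlk1 in these differences was not tested.

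In CM derivatives 8 of these genes rose and 9 fell against P12 ieCPCs, beside 62.1% of all tested rows called. Pparg, the adipocyte master regulator, rose by 3.81 ± 0.17, to 10.7 ± 0.389 CPM in CM derivatives against 0.756 ± 0.125 CPM in P12 ieCPCs, and Cebpd rose by 3.47 ± 0.14. Fabp4, an adipocyte lipid carrier, was at 12.7 ± 1.63 CPM in CM derivatives and at 0.0131 CPM on average in P12 ieCPCs. Hey1 fell by 4.20 ± 0.18. Without CM replicate 3, Evl, Degs2, Ppp2r5c, Aff3, Uhrf1, Dnmt3b, Dnmt1, Phlda2, Nnat, Pparg, Cebpd, Fabp4, Hey1 and Myh6 kept their calls in CM derivatives against P12 ieCPCs, and of these Hey1 moved most, to a log2 fold change of -3.96. The 5 adipocyte markers together summed to 24.6 to 28.1 CPM in CM libraries and 1.06 to 1.33 CPM in P12 ieCPC libraries. They summed to 5.29 to 5.68 CPM in MEFs and 2.63 to 3.38 CPM in day 9 libraries, where Dlk1 was lower than in CM derivatives. The part of such cells in the Dlk1 difference was not tested. Counts for the remaining comparisons were 8 rises and 8 falls in day 9 cultures against MEFs, 7 and 9 in P3 ieCPCs against MEFs, and 8 and 8 in CM derivatives against P3 ieCPCs, beside 57.2%, 65.8% and 63.1% called over all tested rows.

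Thyroid hormone, the substrate of Dio3, was covered by 24 deiodinases, receptors, transporters and targets, of which 22 were tested. In P12 against P3 ieCPCs 3 rose and 5 fell, 36.4% of the 22, beside 36.8% of all tested rows, a share near that of all rows. Dio2, the deiodinase that activates the hormone, fell by 1.21 ± 0.16 on the log2 scale, to 5.06 ± 0.142 CPM in P12 ieCPCs against 11.7 ± 1.86 CPM in P3 ieCPCs, while Dio3 itself had 55 counts in P12 and 54 in P3 ieCPCs. Slc7a5, a transporter of the hormone, rose by 1.05 ± 0.14. In P3 ieCPCs against day 9 cultures 9 rose and 5 fell, beside 60.7% called over all tested rows, with rises of Slc7a8 by 3.62 ± 0.11 and Dio2 by 2.05 ± 0.17. In CM derivatives 13 rose and 3 fell against P12 ieCPCs, beside 31.3% of all tested rows called higher and 30.8% lower. The largest rise was that of Myh6, a heart myosin, at 1893 ± 570 CPM in CM derivatives against 1.29 ± 1.32 CPM in P12 ieCPCs. Myh7, also of this list, had 388 ± 176 CPM in CM derivatives and 0.689 ± 0.291 CPM in P12 ieCPCs. Both are also among the cardiomyocyte markers, and a part of thyroid hormone in their levels was not tested. In day 9 cultures against MEFs 6 rose and 10 fell, in P3 ieCPCs against MEFs 11 and 8, and in CM derivatives against P3 ieCPCs 14 and 4, beside 57.2%, 65.8% and 63.1% of all tested rows called in these comparisons. The 6 rises of day 9 cultures were 2 without MEF replicate 3 and 3 without day 9 replicate 1. The 5 falls of P3 ieCPCs against day 9 cultures were 3 without day 9 replicate 1 or P3 replicate 2, and the 4 falls of CM derivatives against P3 ieCPCs were 2 without P3 replicate 1 or CM replicate 3.

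The genes whose 5 group means most resembled a member's were ranked by the root mean square difference of centred log2 CPM, among 13109 named genes with at least 1 CPM in a group. Mirg and Rian were closer to each other, at 0.277, than either was to any other gene. Next after them for Rian came Flrt2 at 0.432, Pcdh9 at 0.570 and Epha3 at 0.772, cell-surface proteins with roles in adhesion or axon guidance. For Mirg the next were the same 3, at 0.648, 0.711 and 0.788. Meg3 lay nearest to Pcdh9 at 0.618 and Flrt2 at 0.923, ahead of Rian at 0.948. Dlk1 was nearest to Hand2, a heart transcription factor, at 0.342, then Ppp2r2b at 0.359 and Dlg2 at 0.376, and its distance to Meg3 was 4.50. Rtl1 was nearest to Vangl2 at 0.107 and then to the division genes Cdca5 at 0.126 and Bub1 at 0.132. Dio3 stayed below 1 CPM in every group, so no genes were ranked by likeness to it. These distances rest on 5 group means each and describe likeness of level only.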

How the data were processed

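RNA of 15 libraries, 3 in each of 5 groups, was sequenced on an Illumina GAIIx, per the labels' protocols. The submitters' processing notes name TopHat2 2.0.13, featureCounts of Subread and mm9. The strand setting and the handling of reads with several matches are not given in the sources used here. The count columns deposited by the authors hold whole numbers per gene with no scaling. The CPM columns deposited by the authors cover 17925 rows, all 6 members among them, and were not tested. Columns headed FPKM equalled CPM over length in 1 of 15 libraries and were not used. Sample columns left unmapped numbered 0.

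Tests used the deposited counts. Rows were filtered with filterByExpr of edgeR 4.0.16 (limma 3.58.1, R 4.3.3), scaled by TMM, and fitted over all 15 libraries in a single quasi-likelihood model with 1 coefficient for each group. The 6 comparisons were 2-sided contrasts, with Benjamini-Hochberg adjustment over 17999 rows and a call at an adjusted p of 0.05. The model's common coefficient of variation was 0.0679. The TMM factor was 0.545 to 0.643 for CM derivatives, against 0.973 to 1.22 elsewhere. Library totals, given above, set the precision, and figures that place 3 counts over a group cover only the counting error of the group at 0. The procedure was tested on simulated counts.

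The members and the gene lists were chosen with earlier results of these data known. Lists matched 20 of 20 methylation and chromatin factors, 38 of 40 imprinted genes of other domains (not Kcnq1ot1 or Peg13), 21 of 21 genes near Dlk1 and 24 of 24 thyroid hormone genes. By rule, a list could supply up to 4 called genes in a comparison, by size of log2 fold change, if the higher group had 1 CPM or more and the libraries of the groups did not overlap. The rule also took rows inside the cluster with at least 10 counts and the 5 genes most like each member. Named outside it, after their values were seen, were Begain, Ppp2r5c, Traf3, Rcor1, Dnmt1, Dnmt3a, Zfp57, Ctcf, Eed, Trim28, Uhrf1, Tet1, Tet2, Mir342, Gm17712 and Gm17639, in some comparisons. Alternatives were RLE and upper-quartile scaling, 2 other filters, DESeq2 1.42.0, a fit of only the 6 libraries compared, a replicate block and leaving out each library. Some genes that the rule takes are not reported here. Positions are on mm9, and sequences are RefSeq's on GRCm38.p6.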

Additional observations from a re-analysis of the deposited data

How the results depend on the processing

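In P12 against P3 ieCPCs the log2 fold change ran from -7.10 to -6.71 for Meg3, from -4.66 to -4.53 for Rian and from -4.94 to -3.80 for Mirg over all alternatives, the ends for Mirg being those without P12 replicate 3 and without P12 replicate 2. Dlk1 was at -0.32 there with upper-quartile scaling. The side of 2-fold changed for Mirg in P3 ieCPCs against MEFs, at -0.97 with upper-quartile scaling, and for Dio3 in CM derivatives against P12 ieCPCs, at -1.01 with that scaling and -1.98 without CM replicate 2. Dio3 in CM derivatives against P3 ieCPCs was at -1.84 without CM replicate 2. The sign changed only where the reported value was within 0.14 of 0, for Rian and Dio3 in day 9 cultures against MEFs and for Dio3 in P12 against P3 ieCPCs. Dio3, with at most 23 counts in a library, and Mirg in P12 ieCPCs are limited by depth. Upper-quartile scaling moved the median of all tested rows in CM derivatives against P12 ieCPCs by -0.11. Scaled to the plain library total, Meg3 in CM derivatives was at 17.1 CPM, against 27.9 with TMM.

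Calls of the rows inside the cluster, summed over the 6 comparisons, numbered 88, and 31 with at least 1 CPM in 3 libraries and 50 with only the 6 libraries compared, settings that test fewer of these rows. Leaving out 1 library in turn gave 82 to 95. The rows called in P12 against P3 ieCPCs numbered 6629, and 5438 to 7466 when 1 library was left out. Same-numbered libraries did not deviate together, so the numbers were not taken to pair them. With the replicate block 6571 rows were called in that comparison.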
